A study of Mus musculus with 2 samples.

Results

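Mir135a-1, Mir135a-2, Mir135b and Mir92b are the mouse genes of the microRNAs miR-135a, miR-135b and miR-92b, which are studied for their roles in neural progenitors. They were chosen by name: the 4 genes were found by matching the Ensembl identifiers of the count tables to the GENCODE annotation, and they are 4 of the 1973 miRNA genes in the tables. Reads of small RNAs from embryonic neural tube were counted in 2 libraries of 1 group, mouse strain B6NCrl at embryonic day 14.5, with no treatment or other genotype named in the labels. The first replicate was taken from dam 1 and the second from dam 2. The labels describe a single neural tube per sample but also give the sex as pooled, so the number of embryos behind a library is uncertain. No second tissue, age or condition was measured, so the data address how abundant these genes were and how their levels compared between these libraries. A difference between litters cannot be told apart from one between libraries.

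A microRNA is cut from a hairpin precursor, and its mature strand guides Argonaute proteins to messenger RNAs, mainly through the seed, bases 2 to 8 from the 5′ end. In the mouse midbrain, miR-135a acts downstream of the transcription factor Lmx1b and tunes Wnt signalling and the size of the dopaminergic progenitor pool. In human colorectal cancer cells, miR-135a and miR-135b repress APC, an inhibitor of Wnt signalling. In the mouse cortex, miR-92b limits the number of intermediate progenitors by repressing Tbr2. In a bulk sample, fewer cells of a type and less RNA per cell cannot be told apart.

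The sequences of the miR-135 genes are shown because they decide which reads could be counted for which gene. They are RefSeq sequences of build GRCm38.p6, written 5′ to 3′ with the seed in capitals. All 4 genes matched the RefSeq table, and miR-135b-5p is named only.
miR-135a-5p: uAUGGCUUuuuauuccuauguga
miR-135a-1-3p: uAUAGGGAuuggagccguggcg
miR-135a-2-3p: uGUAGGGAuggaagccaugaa
miR-135b-3p: aUGUAGGGcuaaaagccauggg

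Mir135a-1 and Mir135a-2 encode the same 23 bases of miR-135a-5p. Their hairpins share a run of 24 bases, and 5 of the 71 windows of 20 bases in the Mir135a-1 hairpin also occur in another of the 1005 hairpins of the table. An unaltered read of miR-135a-5p therefore fits both genes, and reads at several positions entered no gene count. The 3p strands of the miR-135 genes have 3 different seeds. The Mir135b hairpin shares at most 14 bases in a row with Mir135a-1 and 13 with Mir135a-2, and 0 of its 78 windows of 20 bases occur in another hairpin. Counts of Mir135b thus rest on a sequence that is unique among these hairpins, whereas counts of the Mir135a genes miss the reads they share. The 1005 hairpins do not cover all of the 1973 counted miRNA genes, and the rest of the genome was not searched.

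The second set holds miR-92b-3p and the other mature strands of the table with the same seed, since these could act on shared target sites.
miR-92b-3p: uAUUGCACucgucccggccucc
miR-92a-3p: uAUUGCACuugucccggccug
miR-25-3p: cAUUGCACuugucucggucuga
miR-32-5p: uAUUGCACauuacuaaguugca
miR-363-3p: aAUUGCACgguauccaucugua
miR-367-3p: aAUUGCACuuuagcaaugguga

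These are 6 mature sequences from 7 genes, because miR-92a-3p comes from both Mir92-1 and Mir92-2. Over the 21 bases compared from the 5′ end, miR-92b-3p and miR-92a-3p differ by C10U and C21G (the base of miR-92b-3p, its position counted from 1 at the 5′ end, then the base of miR-92a-3p). The longest run that the Mir92b hairpin shares with Mir92-1 or Mir92-2 is 10 bases, and 0 of its 64 windows of 20 bases occur in another of the 1005 hairpins. Mir92-1 and Mir92-2 share a run of 22 bases that can cost them reads. The other strand of the Mir92b hairpin, miR-92b-5p (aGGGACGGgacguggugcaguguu), has a seed found in no other mature sequence of the table.

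The 4 genes lie on 4 chromosomes, with 0 other measured miRNA genes of their strand within 10000 bases of any of them. Positions are on GRCm38 (mm10) and count from 1. Mir135b lies on the plus strand of chromosome 1, 132198088 to 132198184, in an intron of Lemd1 and of the overlapping gene AC124108.1. Mir135a-1 lies on the plus strand of chromosome 9, 106154124 to 106154213. It sits in an intron of the noncoding gene D030055H07Rik and opposite an untranslated exon part of Glyctk. Mir135a-2 lies on the minus strand of chromosome 10, 92072086 to 92072185, in an intron of the long noncoding RNA gene Rmst. Mir92b lies on the minus strand of chromosome 3, 89227116 to 89227198, outside other genes, with 27 bases between it and Mtx1 on the same strand. Host gene expression is not measured by these tables.

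The tables held 3172235 counts on the sense strand of miRNA genes in replicate 1 and 3671915 in replicate 2. The labels give the libraries separate dams, and their counts were not those of 1 library deposited again: chi-square per degree of freedom was 318 over the 329 genes with at least 10 counts in both. Of the neuronal miRNA genes listed as tissue markers, 14 of 16 had at least 10 counts in both libraries. The other 2 were Mir124a-2, with 4 and 13 counts, and Mir124a-3, with 7 and 5. Reads that fit several Mir124a copies entered no gene count, so these counts may understate miR-124. Levels are counts per 1000000 sense counts (CPM). No molecular identifiers are stated, so intervals and limits cover counting error only.

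Mir135b was the most abundant of the 4 genes and ranked 27th of all miRNA genes in replicate 1 and 31st in replicate 2. Reads at several positions, 32.4% and 33.3% of reads in replicates 1 and 2, entered no gene count. Ranks here and below may therefore be too high relative to miRNAs made by several like copies. It had 15895 counts in replicate 1, or 5011 CPM (exact Poisson 95% interval 4933 to 5089), and 16569 counts in replicate 2, or 4512 CPM (4444 to 4582). Its level was slightly higher in replicate 1, and the mean was 4762 ± 352 CPM (SD, n = 2).

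Mir92b came next, at rank 44 in replicate 1 and 56 in replicate 2. It had 7928 counts, or 2499 CPM (2444 to 2555), in replicate 1 and 9170 counts, or 2497 CPM (2446 to 2549), in replicate 2. These CPM levels were nearly equal, with a mean of 2498 ± 1.31 CPM (SD, n = 2), and each lay inside the counting interval of the other.

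Mir135a-1 and Mir135a-2 were more than a factor of 10 below Mir92b in each library. Mir135a-1 had 693 counts, or 218 CPM (202 to 235), in replicate 1 and 861 counts, or 234 CPM (219 to 251), in replicate 2, with a mean of 226 ± 11.3 CPM (SD, n = 2). Mir135a-2 had 454 counts, or 143 CPM (130 to 157), and 525 counts, or 143 CPM (131 to 156), with a mean of 143 ± 0.0987 CPM (SD, n = 2). The counting intervals of the libraries overlapped for both genes, and the levels describe reads at single positions.

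The order Mir135b, Mir92b, Mir135a-1, Mir135a-2 was the same in both libraries, and no 2 genes next to each other in it had overlapping intervals within a library. Dividing the level by hairpin length kept this order, but lengths of 83 to 100 bases are too alike to have changed it. Per 100 bases, Mir135b had 5166 CPM in replicate 1 and 4652 in replicate 2, and Mir92b had 3011 and 3009. Mir135a-1 had 243 and 261, and Mir135a-2 had 143 and 143. The median over the 329 genes with at least 10 counts in both libraries was 170 CPM. By single-position reads, Mir135b and Mir92b lay above the upper quartile of those genes, 1011 CPM. Mir135a-1 lay above that median and Mir135a-2 below it. The 4 genes together made up 0.787% of sense counts in replicate 1 and 0.739% in replicate 2. Reads on the other strand of the 4 hairpins came to 1 in all, at Mir92b in replicate 1.

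**Figure D1:**
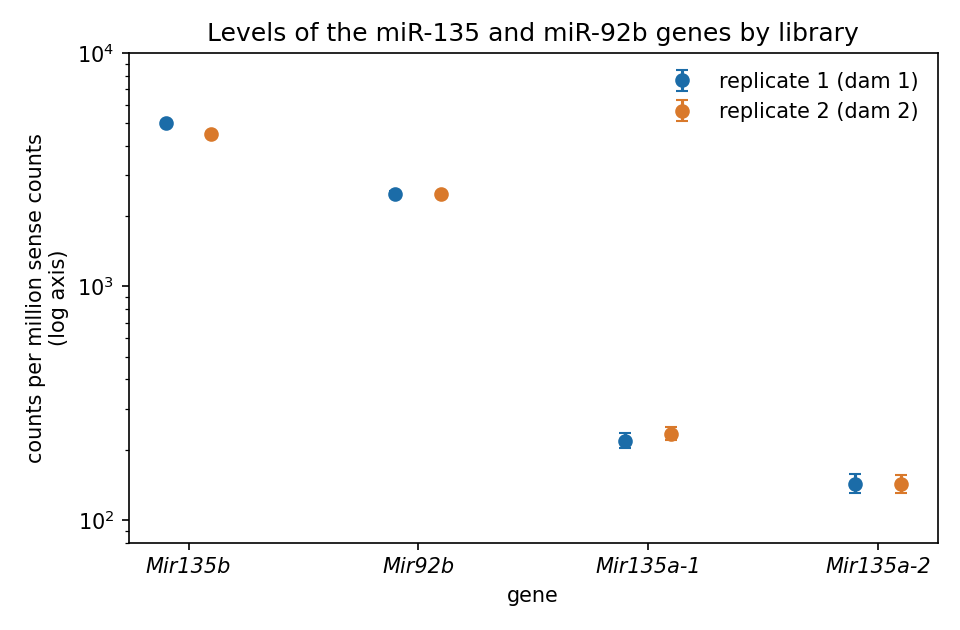
CPM on the sense strand (y, log axis) of the 4 genes (x) in each library, with exact Poisson 95% intervals that cover counting error only. Mir135b sits at 5011 and 4512 CPM and Mir92b at 2499 and 2497, while the Mir135a copies sit between 143 and 234.

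Within the miR-135 family, nearly all single-position reads came from Mir135b. Its share was 93.3% in replicate 1 (exact binomial 95% interval 92.9 to 93.6) and 92.3% in replicate 2 (91.9 to 92.7), a mean of 92.8% ± 0.699 (SD, n = 2). Mir135a-1 took 4.07% (3.77 to 4.37) and 4.80% (4.49 to 5.12), and Mir135a-2 took 2.66% (2.43 to 2.92) and 2.92% (2.68 to 3.18). The share of Mir135b was a little lower in replicate 2 and that of Mir135a-1 a little higher, with intervals that did not overlap, whereas those of Mir135a-2 did. Mir135a-1 had 1.53 times the counts of Mir135a-2 in replicate 1 (1.35 to 1.72) and 1.64 times in replicate 2 (1.47 to 1.83). Reads of miR-135a-5p that fit both copies are missing from these shares, so the share of Mir135b may be overstated.

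Among the genes with the miR-92b seed, Mir92b had the most counts in each library, but its share differed between them. It took 66.7% of the family's counts in replicate 1 (65.9 to 67.6) and 55.8% in replicate 2 (55.0 to 56.5), a mean of 61.2% ± 7.73 (SD, n = 2). Mir92-1, a member of the miR-17~92 cluster, followed at 16.7% (16.0 to 17.4) and 22.2% (21.6 to 22.8). Its mature strand is also made by Mir92-2, which took 0.951% and 1.28%, and reads that fit both genes are missing.

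Mir25, of the miR-106b~25 cluster, took 7.54% and 10.4%, Mir363, in a cluster with Mir92-2 on the X chromosome, 5.91% and 7.40%, and Mir32 2.20% and 2.998%. Mir367, a gene known from pluripotent stem cells, had 0 counts in each library, which limits its level to 0.946 CPM in the first library and 0.817 CPM in the second. Mir92b had 2.00 times the summed counts of its seed relatives in replicate 1 (1.93 to 2.08) and 1.26 times in replicate 2 (1.22 to 1.30). Such ratios within a library do not depend on how libraries are scaled. Reads of miR-92a-3p that fit both Mir92-1 and Mir92-2 are missing from the denominators, so the shares and ratios of Mir92b may be overstated.

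**Figure D2:**
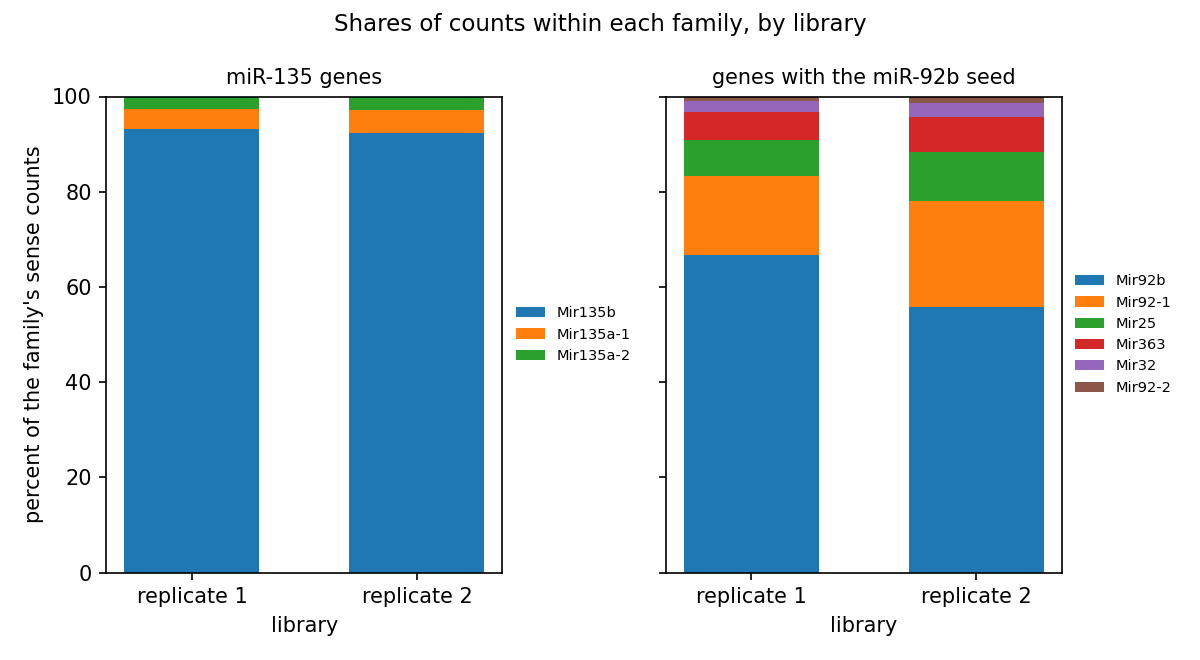
Percent of sense counts (y) taken by each gene of the miR-135 family (left) and by each gene with the miR-92b seed and at least 1 count (right) in replicate 1 and replicate 2 (x). Mir135b takes 93.3% and 92.3% of its family, and Mir92b takes 66.7% of its family in replicate 1 and 55.8% in replicate 2.

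The libraries were then compared gene by gene. Counts were set against library sizes scaled with edgeR's trimmed mean of M-values (TMM), using a two-sided exact binomial test and Benjamini-Hochberg adjustment over the 360 genes that had at least 10 counts in 1 library or more. A gene was called with an adjusted p below 0.05 and at least a 2-fold difference. By this rule 10.3% of the 360 genes were called, 14 higher in replicate 1 and 23 higher in replicate 2, and 0 of the 4 genes was. Without the fold minimum, 56.7% of the genes passed, among them 3 of the 4. The same 3 had an unadjusted p below 0.05. Each dam gave 1 library, so the test sets 1 library against the other and carries no error between litters.

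Mir135b had the largest ratio of the 4, 1.29-fold higher in replicate 1, or 0.36 as a log2 ratio with replicate 1 in the numerator (95% interval 0.33 to 0.40, adjusted p = 1.14e-112 by the exact binomial test). Scaling by total counts moved every log2 ratio by -0.21 and gave 0.15 for Mir135b. Of the 360 genes, 56.9% had a smaller absolute log2 ratio, so its distance between the libraries was close to the middle of all genes.

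Mir92b had a log2 ratio of 0.21 (0.17 to 0.26, adjusted p = 2.58e-21 by the exact binomial test) and Mir135a-2 also one of 0.21 (0.03 to 0.40, adjusted p = 0.0392 by the exact binomial test), and both came to 0.00 with scaling by total counts. Mir135a-1 had 0.11 (-0.04 to 0.26, adjusted p = 0.204 by the exact binomial test), whose sign changed, to -0.10, under that scaling. Of the 360 genes, 36.9% had a smaller absolute log2 ratio than Mir92b, 37.2% than Mir135a-2 and 19.7% than Mir135a-1. The median log2 ratio of the 360 genes was -0.02, and 175 were above 0. With an assumed coefficient of variation of 0.2 between libraries, edgeR's exact test gave an adjusted p = 1 for each of the 4, against a lowest value over all alternatives of 8.71e-116 for Mir135b, 2.58e-22 for Mir92b and 0.0166 for the Mir135a copies, the last with both copies summed.

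**Figure D3:**
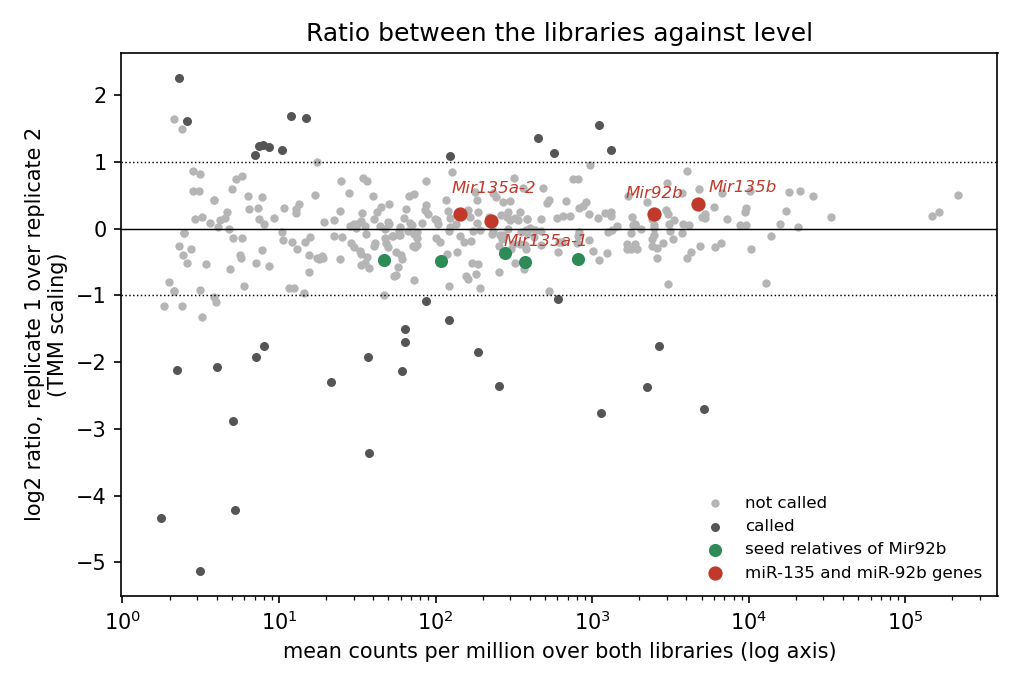
Log2 ratio of replicate 1 over replicate 2 with TMM scaling (y) against mean CPM (x, log axis) for the 360 tested genes, with dotted lines at 2-fold. The 4 genes lie between 0.11 and 0.36, inside the dotted lines, and the detected seed relatives of Mir92b lie between -0.50 and -0.37.

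The seed relatives of Mir92b lay on the other side of 0. Of the 5 with counts, 5 had ratios below 0, from -0.50 for Mir25 to -0.37 for Mir363, and none of their intervals overlapped that of Mir92b. Counts of Mir25 were 896 and 1702 in replicates 1 and 2 (-0.50, 95% interval -0.62 to -0.38), and those of Mir92-1 were 1984 and 3651 (-0.46, 95% interval -0.54 to -0.38). All 5 passed the test without the fold minimum, as did 56.7% of all genes, and 0 were called. The ratios of the 5 stayed below 0 with scaling by total counts, from -0.71 to -0.58, and with DESeq2 size factors, from -0.55 to -0.42. Mir92-2 and Mir363 lie in 1 cluster on the X chromosome, so the 5 are not all independent.

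**Figure D4:**
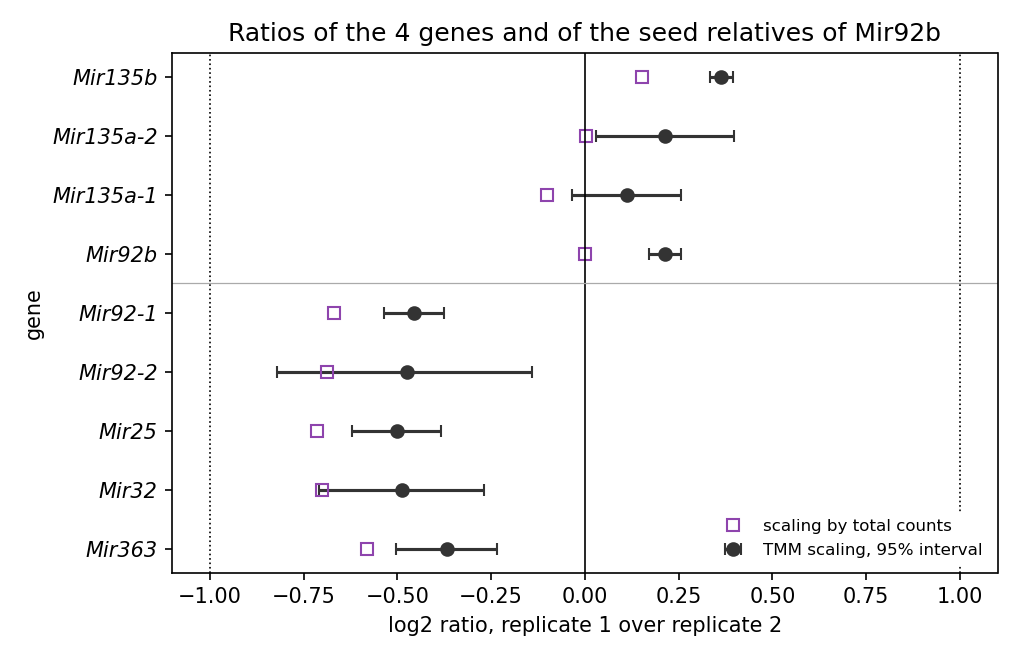
Log2 ratio of replicate 1 over replicate 2 (x) of the 4 genes and the 5 detected seed relatives of Mir92b (y), with TMM scaling and its exact binomial 95% interval (filled) and with scaling by total counts (open squares); dotted lines mark 2-fold. The relatives lie below 0 under both scalings, whereas Mir135a-1 is at 0.11 under one and -0.10 under the other.

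Of the 8 genes listed as neural progenitor miRNAs, 7 were measured and 5 were tested, these 4 and Mir9-3, a gene of the abundant neural miRNA miR-9. Counts of Mir9-3 were 1741 and 1784, which gave 0.39 on the log2 scale (95% interval 0.29 to 0.48) and 0.18 when libraries were scaled by their totals. Its copy Mir9-2 had 5 and 4 counts, Mir184 had 0 and 2, and Mir9-1 was not analysed here. Reads that fit several Mir9 copies entered no gene count, so the counts of Mir9-2 and Mir9-3 may understate miR-9. The median of the 5 tested genes was 0.21 and 0 were called. With total counts, the median was 0.00 and 4 of the 5 were above 0. Of the 15 tested neuronal genes, 10 lay above 0 (7 with total counts), against 175 of all 360 genes, with a median of 0.21 (-0.00 with total counts). Of the 15, 2 were called, Mir128-1 and Mir128-2, both higher in replicate 1, beside 37 of all 360 genes (10.3%). With total counts, the log2 ratios of Mir128-1 and Mir128-2 were 0.97 and 0.92, below the 2-fold minimum. Mir137, the listed neuronal gene with the most single-position reads, had 30433 and 34225 counts and a log2 ratio of 0.25, or 0.04 with total counts. Mir138-1 had 2705 and 5037 counts and a log2 ratio of -0.47.

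Marker miRNAs of other cell types were read against the 10.3% called over all genes. The sensory genes Mir96, Mir182 and Mir183 summed to 0.211% of counts in replicate 1 and 1.505% in replicate 2, and 3 of 3 were called. These sensory genes form 1 cluster, so their calls are not independent. The 6 mesenchymal genes summed to 0.120% and 0.489%, with 5 of 5 tested members called. Mir143 is clustered with Mir145a and Mir199a-2 with Mir214, so these calls are not all independent either. The endothelial gene Mir126a took 0.844% and 1.73%. The called sensory and mesenchymal genes were higher in replicate 2, and Mir126a, with a log2 ratio of -0.82, was not called. With total counts the log2 ratio of Mir126a was -1.03, beyond the 2-fold minimum. In the blood list 1 of 4 genes was called, Mir223, higher in replicate 2, while Mir150 and Mir451a had log2 ratios of -0.10 and -0.24. In the oligodendrocyte lineage 0 of 3 were called, with Mir219a-1 at 0.15, Mir219a-2 at 0.40 and Mir338 at -0.65. Of the 4 measured muscle genes 2 had no count, the copies Mir133a-1 and Mir133a-2. Any reads that fit both copies would enter no gene count, so these zeros need not mean absence. Mir206 had 140 and 189 counts and a log2 ratio of -0.01. The liver gene Mir122 took 0.00435% and 0.00359% of counts. Such markers share the same total with the 4 genes, and their part in the ratios above was not tested.

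By mean log2(CPM + 1) and log2 ratio together, the gene nearest to Mir135b was Mir30d (distance 0.198, 4951 and 5065 CPM), followed by Mir369 (0.207) and Mir125a (0.235). Nearest to Mir92b were Mir298 (0.0922, 2340 and 2455 CPM), Mir324 (0.168) and Mir140 (0.211). Mir135a-1 was nearest to Mir1298 (0.0812, 217 and 222 CPM), Mir339 (0.148) and Mir195a (0.197). Mir135a-2 was nearest to Mir301b (0.167, 128 and 141 CPM), Mir668 (0.189) and Mir219a-1 (0.221). Likeness over 2 libraries only places genes at a like level and ratio.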

How the data were processed

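The authors counted reads per miRNA gene and deposited unnormalized counts, 1 table for each library. The text notes beside the tables name the assembly mm10 and annotation M4. The aligner, its settings and the read trimming were not given in the sources used here. The sense-strand column was used. The 4 rows that name no gene entered neither totals nor tests. They hold reads at several positions (32.4% and 33.3% in replicates 1 and 2), unmapped reads (11.5% and 11.8%), reads on no gene (2.75% and 3.01%) and ambiguous reads (0% in each). Of the 1973 identifiers, 1894 matched GENCODE M21 without their version. CPM is per 1000000 sense counts.

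TMM factors came from edgeR 4.0.16 (R 4.3.3) over the tested genes, and size factors for an alternative from DESeq2 1.42.0. Log2 ratios have a prior count of 0.5. Binomial tests used scipy 1.17.1, with intervals by the exact Clopper-Pearson method, and a count of 0 was taken to allow 3 counts. With 2 libraries and 1 group, edgeR's quasi-likelihood test could not be fitted to a contrast. Python 3.11.15, numpy 2.4.6, pandas 2.3.3 and matplotlib 3.10.9 were used. The procedure was tested on simulated data with counting error and planted ratios only. That test cannot show how the procedure behaves where libraries vary beyond counting error.

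The members and gene lists were chosen with earlier results of these data known. Named genes were the 4 members, their seed relatives, up to 3 genes of the progenitor and neuronal lists by mean CPM, and the 3 genes nearest to each member. Mir128-2, Mir124a-2 and Mir124a-3, Mir9-2 and Mir184, and the marker genes of other cell types were named after their values were seen.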

Additional observations from a re-analysis of the deposited data

How the results depend on the processing

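None of the 4 genes was called under any of the 6 alternatives of scaling, filter, strand or test, or with the Mir135a copies summed. Scaling by total counts turned the log2 ratio of Mir135a-1 from 0.11 to -0.10 by construction, since it moves all ratios alike. Of the 12 log2 ratios that the 3 settings of scaling and strand could move, the other 11 kept their sign, as did that of the summed copies. With total counts, however, those of Mir92b and Mir135a-2 came to 0.00, so their kept signs mean little. The 3 settings of filter and test leave a log2 ratio as it is. The counts of genes called, 37 in all with 14 higher in replicate 1 and 23 in replicate 2, were 20, 5 and 15 among the 282 genes with at least 100 counts. Scaling by total counts gave 8 and 35, and an assumed coefficient of variation of 0.2 gave 21 in all and 4 higher in replicate 1.

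Levels followed their denominator. With the 3 most abundant genes left out of the total, the mean was 10137 CPM for Mir135b, 5306 for Mir92b, 480 for Mir135a-1 and 304 for Mir135a-2. Per 1000000 of all reads in the table it was 2509, 1315, 119 and 75.3. With either-strand counts it was 2464 for Mir92b and 141 for Mir135a-2, outside their small SD. The order of the genes was the same each time, but it could not have changed. Each total is shared by all genes of a library, and counting either strand added only 1 read to these genes, at Mir92b. A library left out gives the single values of the report and no ratio. No paired analysis was possible because the samples form 1 group.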
